A study of Mus musculus with 7 samples.

Results

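Cytochrome P450 genes were described in bleomycin-injured mouse lung with and without hyperbaric oxygen (HBO). They were chosen as the protein-coding genes of the GENCODE vM21 annotation whose symbol is Cyp followed by a family number, subfamily letters and a gene number, which gave 94 genes among the 55401 in the deposited table. Of these, 32 had 10 or more reads in at least 3 mice and were tested, and 29 of the 32 had 10 or more reads in all 7 mice. The 32 genes belonged to 11 families and 25 subfamilies. All mice were male C57BL/6 animals aged 6 to 8 weeks whose airways were instilled with bleomycin, an anticancer drug that damages and scars lung tissue. From day 7, the BLM+HBO mice (n = 3) breathed oxygen at 2.5 ATA for 90 min per day over 14 days. The BLM mice (n = 4) did not breathe pressurized oxygen, and whether they were also placed in the chamber is described differently in the sample records and in the study's methods. Lungs of all mice were collected on day 21, 1 library was made per mouse, and mice without bleomycin were not analysed here.

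Cytochromes P450 are heme enzymes that split molecular oxygen and insert 1 of its atoms into a substrate, with electrons passed on by P450 oxidoreductase in the endoplasmic reticulum or by ferredoxin in mitochondria. Members of the lower-numbered families act mainly on drugs, smoke constituents and other foreign compounds, family 4 acts on fatty acids and their derivatives, and the higher-numbered families act mainly on sterols, bile acids, vitamins A and D and steroid hormones. In mouse lung, the nonciliated club cells of the airways are known for a high content of P450 enzymes, Cyp2f2 among them.

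All P450 enzymes hold the heme iron through 1 cysteine, which lies in a short conserved stretch called the heme-binding cysteine signature. The signature was found in the longest coding sequence of 28 of the 32 tested genes and of 89 of the 94 annotated genes, against 0.623% of the 21842 protein-coding genes searched. The longest coding sequences of Cyp20a1, Cyp2s1, Cyp2b10 and Cyp8b1 did not match it letter for letter. Their other transcripts were not searched, so a miss does not show that the enzyme lacks the signature. It is shown for the genes past the thresholds below and for Cyp4b1, a family 4 gene with a high level in these lungs, from the GENCODE vM21 transcripts on GRCm38. The 30 bases are given 5′ to 3′ with the codon of the cysteine in capitals.
Cyp1a1: tttggtttgggcaagcgaaagTGCatcgga
Cyp2f2: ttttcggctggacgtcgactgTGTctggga
Cyp2a5: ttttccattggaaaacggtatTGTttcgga
Cyp2b19: ttctccacaggaaagcgcattTGTcttgga
Cyp4b1: ttttctgcagggcccaggaatTGCattggg
The cysteine codon was TGT in 11 and TGC in 17 of the 28 genes, and it was TGT in the 3 family 2 genes shown.

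The stretch upstream of the transcription start is shown for the 4 genes past the thresholds, all of them higher in BLM+HBO. They were picked by this difference, and a shared regulation of them was not tested. The sequences are those of RefSeq on GRCm38.p6, all on the plus strand, and bases that lie in an annotated exon of the gene were left out. Cyp1a1 is printed from chr9:57697363-57697612, Cyp2f2 from chr7:27119705-27119908, Cyp2a5 from chr7:26835089-26835304 and Cyp2b19 from chr7:26756892-26757141. Capitals mark GCGTG, the core letters within the sites that the aryl hydrocarbon receptor binds, and TATAAA, the TATA box. A match of these core letters alone does not show a site of the receptor, and its binding was not measured.
Cyp1a1: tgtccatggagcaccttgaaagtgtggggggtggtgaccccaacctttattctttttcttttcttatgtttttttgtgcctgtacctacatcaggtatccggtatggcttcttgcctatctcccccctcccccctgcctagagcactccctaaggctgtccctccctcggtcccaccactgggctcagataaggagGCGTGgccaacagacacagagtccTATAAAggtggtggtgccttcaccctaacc
Cyp2f2: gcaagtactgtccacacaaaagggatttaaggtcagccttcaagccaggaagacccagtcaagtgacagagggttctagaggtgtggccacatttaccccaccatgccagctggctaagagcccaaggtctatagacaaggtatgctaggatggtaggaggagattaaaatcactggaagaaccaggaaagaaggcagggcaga
Cyp2a5: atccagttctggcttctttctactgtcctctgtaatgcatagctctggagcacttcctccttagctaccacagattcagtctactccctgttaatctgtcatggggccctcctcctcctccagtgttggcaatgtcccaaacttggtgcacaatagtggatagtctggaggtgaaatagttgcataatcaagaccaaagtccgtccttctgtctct
Cyp2b19: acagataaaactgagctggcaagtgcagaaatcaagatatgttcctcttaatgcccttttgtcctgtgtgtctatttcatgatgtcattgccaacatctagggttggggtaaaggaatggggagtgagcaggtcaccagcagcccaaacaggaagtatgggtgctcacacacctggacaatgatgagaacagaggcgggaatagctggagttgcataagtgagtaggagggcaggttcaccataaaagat
The Cyp1a1 stretch lies inside the longer gene span of GENCODE, where no exon of the gene is annotated, and its GCGTG begins 54 bases before the RefSeq start. Both strands of the 250 bases before the start were searched for 5 motifs in the 27 tested P450 genes that the promoter table holds. GCGTG was in 10 of the 27, against 28.2% of all 32851 promoters, and TATAAA was in 6 of the 27, against 12.4%. ACGTG, the core bound by hypoxia-inducible factors, was in 5 of the 27, against 16.6%. TGTTTAC, a forkhead motif, was in 1 of the 27, against 3.17%, and TTANGTAA, the D-box bound by the clock-controlled factors Dbp, Tef and Hlf, was in 0 of the 27, against 2.06%. On the same strand, the last base of ACGTG can also be the first base of GCGTG. Of the 4 genes shown, Cyp1a1 alone held GCGTG, and Cyp2a5 held a TATAAA among its bases that were left out.

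Each mouse gave a total of 18157161 to 26365969 counted reads, and the 94 annotated P450 genes took between 0.107% and 0.292% of them. Levels below are CPM, the reads of a gene relative to the reads of its library, scaled by TMM factors between 0.962 and 1.036, and levels per gene length (RPKM) are CPM per kilobase of exon. Fold changes, standard errors and P values come from edgeR's quasi-likelihood test over all 17740 genes that passed the same read filter, with BLM as the reference. A gene was called at an unadjusted P below 0.05 and a fold change above 1.5, and P was adjusted by Benjamini-Hochberg over all tested genes. BLM+HBO 2 lay nearest to the BLM mice for many of the P450 genes, so values without this mouse are given where they differ. It was singled out after the values were seen, and leaving out another BLM+HBO mouse often made the difference smaller. Since whole lung was sequenced, fewer cells of a type and less RNA per cell cannot be told apart.

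Of the 32 P450 genes, 4 were called, against 6.32% of all tested genes, and all 4 were higher in BLM+HBO: Cyp1a1, Cyp2f2, Cyp2a5 and Cyp2b19. This was 12.5% of the P450 genes, against 3.46% of all tested genes called higher, and 0 P450 genes were called lower by edgeR, DESeq2 or limma-trend, against 2.86% by edgeR. Cyp2b19 passed the read filter through the 3 BLM+HBO mice alone and so had to differ; without it, 3 of 31 genes were called higher (9.68%). None of the calls held after adjustment by edgeR, where the lowest adjusted P of a P450 gene was 0.42 and 0 of all 17740 genes passed. At an unadjusted P below 0.05, edgeR gave 6 P450 genes, against 10.6% of all genes. DESeq2 called Cyp1a1, Cyp2f2 and Cyp2b19 at the unadjusted thresholds, against 6.72% of all genes, and Cyp1a1 after adjustment (adjusted P = 0.0338), against 0.82% of the 16349 genes for which it gave an adjusted P, and limma-trend gave 0 P450 genes and 0 of all genes after adjustment. Without BLM+HBO 2, edgeR called 8 P450 genes, against 10.6% of all genes, and 1 after adjustment, Cyp1a1, against 1.48%.

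The log2 fold change was above 0 in 22 of the 32 genes, against 51.2% of all tested genes, and its median was 0.22, against 0.01 over all genes. Without Cyp2b19, 21 of 31 were above 0, with the same median. It was 0.12 without BLM+HBO 1. The log2 fold changes below 0 reached no further than -0.31. The groups did not overlap in CPM for 1 of the 32 genes, Cyp2b19, against 8.8% of all genes.

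**Figure D1:**
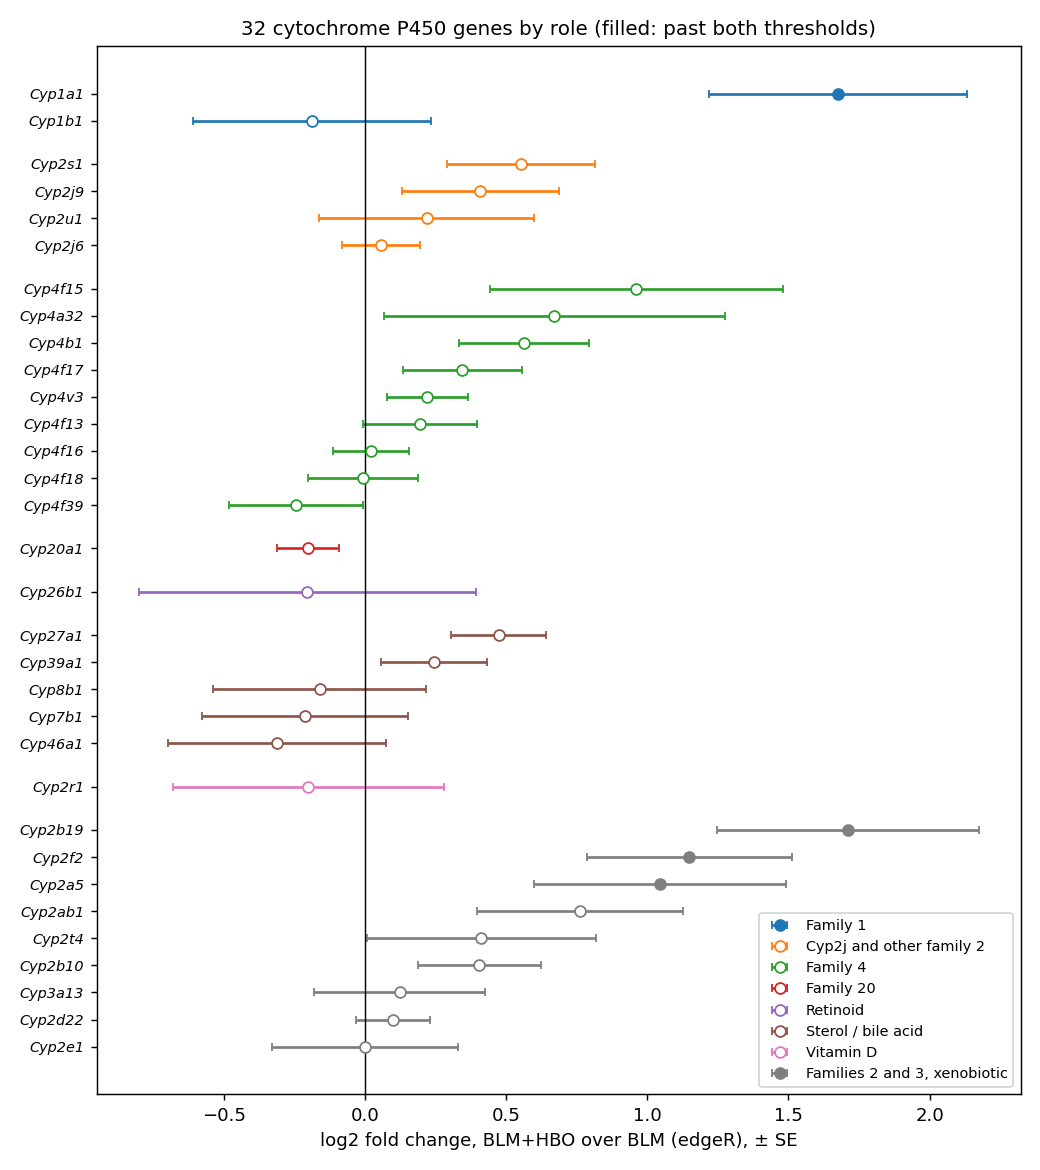
Log2 fold change of BLM+HBO over BLM (x axis) of the 32 tested cytochrome P450 genes (y axis), coloured by role, with bars for ± 1 standard error and filled points for the genes past both thresholds. The 4 filled points lie between 1.04 and 1.71, and no gene lies below -0.31.

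Per gene length, Cyp2f2 had the highest level of all the P450 genes, with a mean of 362 RPKM over the 7 mice, followed by Cyp4b1 at 122 and Cyp2b10 at 76.1 RPKM. The next were Cyp2s1 at 26.6, Cyp20a1 at 17.5 and Cyp2a5 at 13.4 RPKM. Cyp4f18 and Cyp4f16 were both at 11.6 RPKM, Cyp26b1 at 11.1 and Cyp2d22 at 10.04, and the ranges of these 4 genes over the mice overlapped. Cyp1a1 was at 3.15 RPKM and Cyp2b19, the lowest tested gene, at 0.112 RPKM.

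In family 1, Cyp1a1 was called higher and Cyp1b1 was not called. Cyp1a1 oxidizes polycyclic aromatic hydrocarbons and is the classical target gene of the aryl hydrocarbon receptor. Cyp1a1 (ENSMUSG00000032315.6, chromosome 9, 57687928 to 57703824, GRCm38) was at 3.75, 3.72, 2.74 and 7.89 CPM in BLM 1 to BLM 4 and at 17.3, 5.64 and 20.5 CPM in BLM+HBO 1 to BLM+HBO 3. BLM+HBO 1 and BLM+HBO 3 lay above all BLM mice, while BLM+HBO 2 lay below BLM 4, so the groups overlapped. BLM mice averaged 4.53 ± 2.29 CPM (SD, n = 4), whereas BLM+HBO mice averaged 14.5 ± 7.82 CPM (SD, n = 3), a 3.19-fold higher level with a log2 fold change of 1.68 (standard error 0.46, edgeR unadjusted P = 0.00468, adjusted P = 0.42). Over the alternatives, its adjusted P lay between 0.0049 and 0.806. The log2 fold change was 2.06 without BLM+HBO 2, 1.53 without BLM+HBO 1 and 1.33 without BLM+HBO 3. Cyp1a1 was called under all 17 settings run.

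Cyp1b1, which metabolizes estrogens and aromatic hydrocarbons, was chosen for display after its values were seen, as the other family 1 gene. It was at 26.6, 9.93, 6.80 and 9.42 CPM in BLM 1 to BLM 4 and at 13.2, 8.71 and 12.9 CPM in the BLM+HBO mice. BLM 1 stood high and the BLM+HBO mice lay within the range of the BLM mice. Its log2 fold change was -0.19 (standard error 0.42, adjusted P = 0.908 by edgeR), and it was 0.41 without BLM 1. Cyp1a2, the neighbour of Cyp1a1 in the same subfamily, had at most 4 reads in any mouse and was not tested.

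Of 9 tested genes of the receptor complex and its targets, 0 were called in either direction by edgeR, DESeq2 or limma-trend and 0 had an unadjusted edgeR P below 0.05, with a median log2 fold change of -0.03. Aldh3a1, an aldehyde dehydrogenase that the receptor can induce, had the highest log2 fold change of the 9 and was named for it after its values were seen. It was at 8.48, 12.9, 13.8 and 8.9996 CPM in the BLM mice and at 24.002, 8.18 and 20.5 CPM in the BLM+HBO mice, with BLM+HBO 2 below all BLM mice and the other two above them. With all mice the log2 fold change was 0.67 (standard error 0.33, adjusted P = 0.508), and 1.01 (adjusted P = 0.066) without BLM+HBO 2, where it was called higher. Aldh3a1 was also called with no filter on low counts, and Arnt2 was called lower without BLM+HBO 1. Ahr, the receptor itself, was at 58.6 to 106 CPM in BLM and 74.8 to 105 CPM in BLM+HBO (log2 fold change 0.01, adjusted P = 0.988). Ahrr and Tiparp are feedback genes that the receptor induces. Ahrr was below 1 CPM in every mouse (log2 fold change -0.43, adjusted P = 0.842), and Tiparp had a log2 fold change of -0.05 (adjusted P = 0.94). Nqo1, a quinone reductase, was at 6.95 to 8.52 CPM in BLM and at 15.2, 7.56 and 8.88 CPM in the BLM+HBO mice (log2 fold change 0.38, adjusted P = 0.608). Only BLM+HBO 1 stood clearly high for Nqo1.

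**Figure D2:**
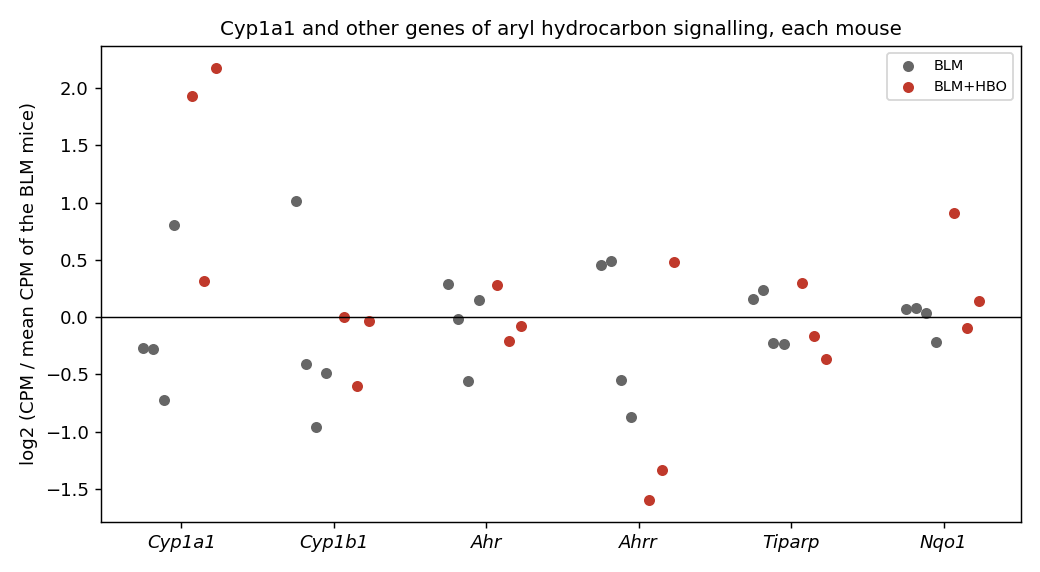
Log2 ratio of CPM to the mean CPM of the BLM mice (y axis) for Cyp1a1, Cyp1b1 and 4 other genes of aryl hydrocarbon signalling (x axis), with 1 point per mouse, grey for BLM and red for BLM+HBO. For Cyp1a1, 2 of the 3 BLM+HBO points stand above all BLM points, while the points of Ahr and Tiparp are mixed.

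Among the 9 tested genes of families 2 and 3 that act mainly on foreign compounds, 8 had a log2 fold change above 0, 3 were called higher and 0 lower, and the median was 0.41. Without Cyp2b19, 7 of 8 were above 0, 2 were called and the median was again 0.41. The 3 called genes were Cyp2f2, Cyp2a5 and Cyp2b19. Cyp2f2 activates naphthalene and related compounds in club cells. Cyp2f2 (ENSMUSG00000052974.8, chromosome 7, 27119909 to 27133660) was at 312, 738, 500 and 377 CPM in the BLM mice and at 975, 579 and 1652 CPM in the BLM+HBO mice. BLM+HBO 1 and BLM+HBO 3 lay above every BLM mouse and BLM+HBO 2 lay below BLM 2. BLM mice averaged 482 ± 188 CPM (SD, n = 4), whereas BLM+HBO mice averaged 1069 ± 543 CPM (SD, n = 3), a 2.22-fold higher level (log2 fold change 1.15, standard error 0.36, edgeR unadjusted P = 0.0106, adjusted P = 0.42). Over the alternatives, its adjusted P lay between 0.0095 and 0.806. The call was lost without BLM+HBO 3, where the log2 fold change was 0.68, and held under the other 16 of 17 settings. An antisense gene, Gm15883, overlaps Cyp2f2, and since the counting did not use strand, reads of the pair cannot be told apart where they overlap; Gm15883 had 24 to 278 reads.

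Cyp2a5 hydroxylates coumarin and nicotine. Cyp2a5 (ENSMUSG00000005547.14, chromosome 7, 26835305 to 26843548) was at 16.9, 31.996, 22.4 and 5.16 CPM in the BLM mice and at 47.3, 40.9 and 30.1 CPM in the BLM+HBO mice. BLM 4 stood low, and the groups overlapped because BLM+HBO 3 lay just below BLM 2. BLM+HBO 2 was high for this gene, unlike for Cyp1a1 and Cyp2f2. The difference was 2.06-fold (log2 fold change 1.04, standard error 0.45, edgeR unadjusted P = 0.0427, adjusted P = 0.458, 0.0548 to 0.806 over the alternatives). Its call held under 11 of 17 settings and was lost by DESeq2, with robust dispersion and when either BLM+HBO 1 or 2 or either BLM 1 or 3 was left out. Of the stretches of 150 bases in its transcript, 5.79% were also in Cyp2a4 or a Cyp2a pseudogene. Read pairs with both ends in such places could not be assigned to 1 gene. Cyp2a4 itself had 2 to 6 reads per mouse.

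Cyp2b19 is known as a P450 of the skin that acts on arachidonic acid. Cyp2b19 (ENSMUSG00000066704.6, chromosome 7, 26757142 to 26772630) had 4, 3, 7 and 3 reads in the BLM mice and 17, 15 and 19 reads in the BLM+HBO mice. The groups did not overlap, but all values were low, between 0.158 and 0.384 CPM in BLM and between 0.712 and 0.905 CPM in BLM+HBO. The log2 fold change was 1.71 (standard error 0.46, edgeR unadjusted P = 0.00446, adjusted P = 0.42, 0.163 to 0.806 over the alternatives), a value that the read filter itself favoured.

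Cyp2b10, the main lung member of its subfamily and a target of the xenobiotic receptor Nr1i3 in liver, was at 94.4, 181, 133 and 156 CPM in the BLM mice and at 228, 147 and 186 CPM in the BLM+HBO mice. BLM+HBO 1 and BLM+HBO 3 lay above all BLM mice and BLM+HBO 2 lay in the middle of them. Its log2 fold change was 0.41 (standard error 0.22, adjusted P = 0.54), and 0.55 (adjusted P = 0.272) without BLM+HBO 2. Cyp2d22 was at 33.1 to 42.1 CPM in BLM and at 47.5, 38.9 and 36.0 CPM in BLM+HBO, with a log2 fold change of 0.10 (adjusted P = 0.821). The remaining 4 genes, Cyp2ab1, Cyp2t4, Cyp3a13 and Cyp2e1, were all below 4 CPM, with log2 fold changes from 0.76 for Cyp2ab1, named after its value was seen, down to about 0 for Cyp2e1. Cyp2ab1 was called under 1 of 17 settings, without BLM+HBO 3.

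**Figure D3:**
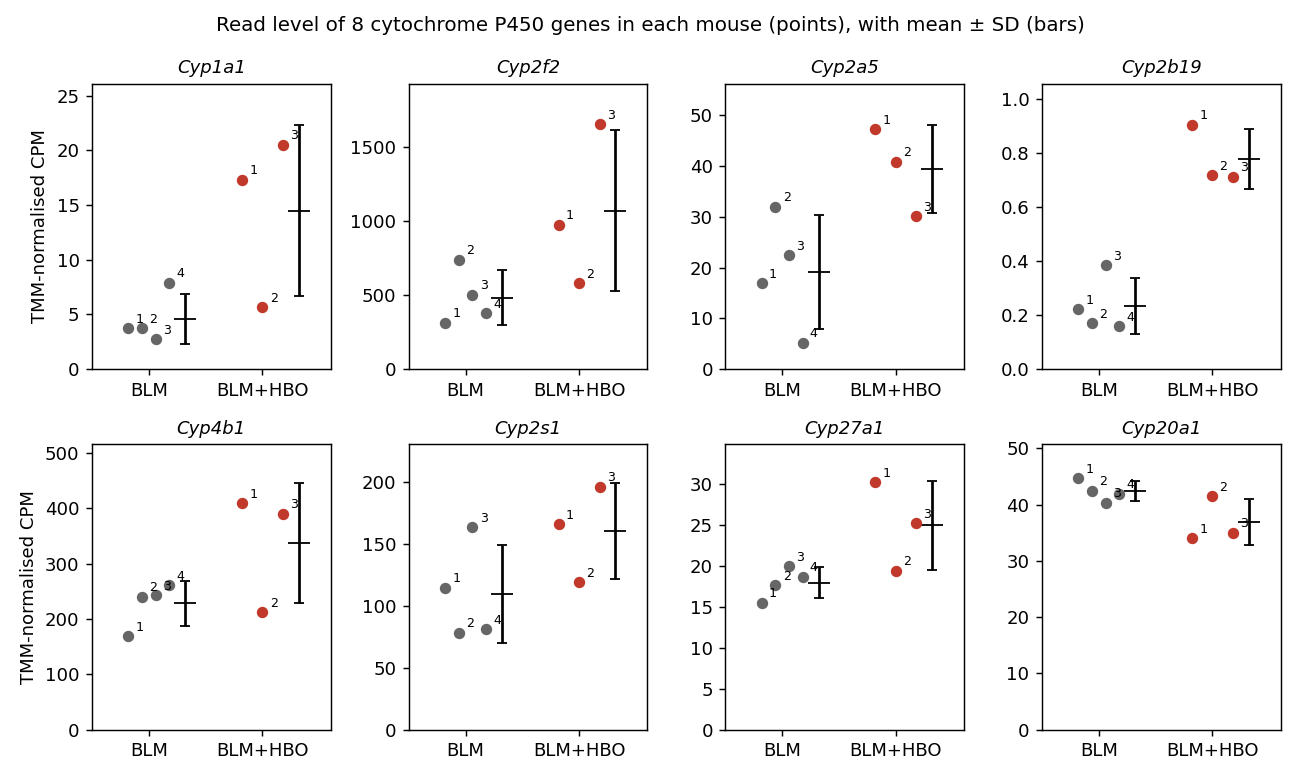
TMM-normalised CPM (y axis, from 0) of 8 cytochrome P450 genes in each BLM and BLM+HBO mouse (numbered points), with the mean ± SD of each group beside them. In Cyp1a1, Cyp2f2 and Cyp4b1, BLM+HBO 1 and 3 stand above all BLM mice and BLM+HBO 2 lies among them, whereas in Cyp2b19 the groups are separate.

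The 3 called family 2 genes lie in 1 gene cluster on chromosome 7 (25802475 to 27158668, GRCm38), which spans 1356 kb from Cyp2s1 to Cyp2t4. It holds 13 of the annotated P450 genes, of which 6 were tested. All 6 had a log2 fold change above 0, with a median of 0.80, and 3 were called. Without Cyp2b19, whose direction the read filter set, the 5 others had a median of 0.55 and 2 were called. Elsewhere in the genome, 16 of 26 tested P450 genes were above 0, with a median of 0.11, and 1 was called, Cyp1a1. The cluster was picked after these values were seen, and the genes inside it are a description with no test. No other tested protein-coding gene lay wholly inside the span, and of 18 tested protein-coding genes within 250 kb of it on either side, 8 were above 0 and 0 were called by edgeR at the same thresholds. Their log2 fold changes ranged from -0.48 for Axl to 0.45 for Dmac2, with a median of -0.03, and 3 of them had an unadjusted P below 0.05. Cyp2t4 (log2 fold change 0.41, adjusted P = 0.746) overlaps the end of Egln2 on the opposite strand, which had 1330 to 2204 reads.

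**Figure D4:**
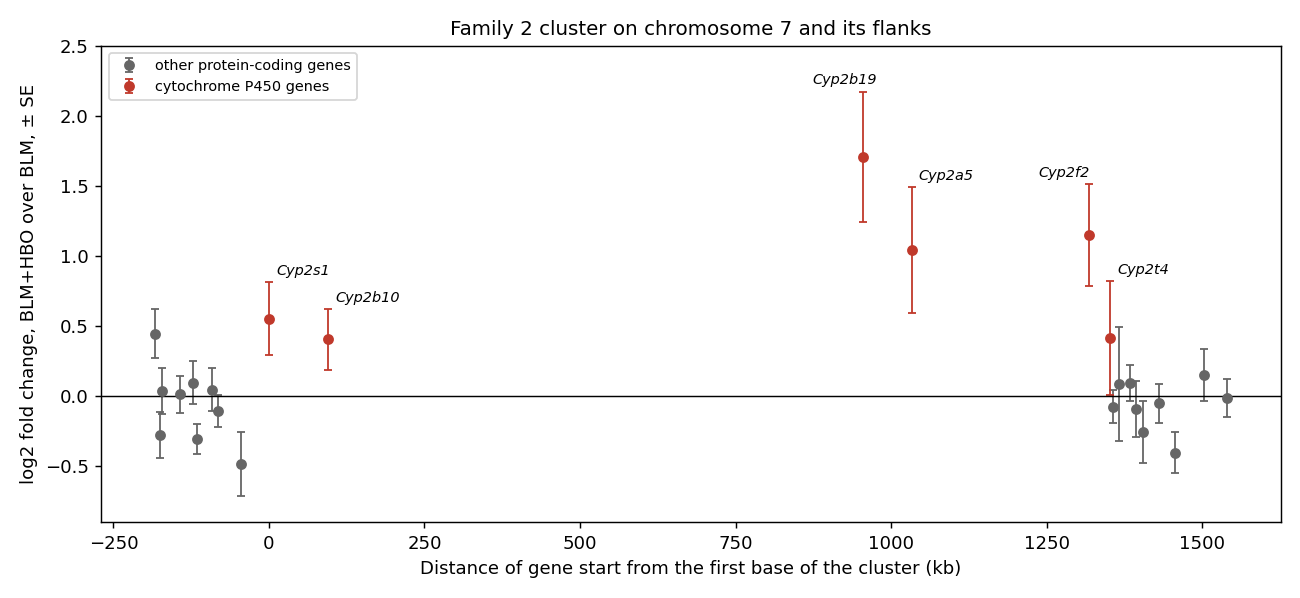
Log2 fold change of BLM+HBO over BLM with ± 1 standard error (y axis) against the distance of each gene's start from the first base of the family 2 cluster on chromosome 7 in kb (x axis). The 6 cytochrome P450 genes (red) all lie above 0, and the 18 flanking protein-coding genes (grey) lie between -0.48 and 0.45.

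The epoxygenase subfamily Cyp2j and the little-studied Cyp2s and Cyp2u genes had 4 tested members, all with a log2 fold change above 0 (0.06 to 0.55) and none called. Cyp2u1, named after its values were seen, went from 0.22 with all mice to -0.26 without BLM+HBO 2. Cyp2s1, an epithelial P450 at the edge of the chromosome 7 cluster, was at 115, 78.6, 164 and 81.2 CPM in the BLM mice and at 166, 119 and 196 CPM in the BLM+HBO mice. BLM 3 was nearly as high as BLM+HBO 1, and the groups overlapped. Its log2 fold change of 0.55 (standard error 0.26, adjusted P = 0.493) came to 0.73 (adjusted P = 0.225) without BLM+HBO 2, and the gene was called there, without BLM 3 and by limma-trend. Cyp2j6, which epoxidizes arachidonic acid, hardly differed, at 16.6 to 21.8 CPM in BLM and 20.0 to 22.4 CPM in BLM+HBO (log2 fold change 0.06, adjusted P = 0.914). It was named after its values were seen.

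Family 4, whose enzymes hydroxylate the ends of fatty acids and inactivate leukotrienes, had 9 tested genes, of which 7 were above 0 and none was called by edgeR in either direction. Cyp4b1, a lung P450 that also activates aromatic amines and furans, was at 169, 240, 243 and 261 CPM in the BLM mice and at 410, 212 and 391 CPM in the BLM+HBO mice. BLM+HBO 1 and BLM+HBO 3 again stood above all BLM mice, and BLM+HBO 2 lay below 3 of the 4. The difference was 1.48-fold, just under the fold threshold (log2 fold change 0.56, standard error 0.23, edgeR unadjusted P = 0.0356, adjusted P = 0.449, 0.0569 to 0.806 over the alternatives). Without BLM+HBO 2 it was 0.81, with an adjusted P = 0.0569, and the gene was called.

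The 6 tested Cyp4f genes lie on chromosomes 8 and 17, with log2 fold changes from -0.24 for Cyp4f39 to 0.96 for Cyp4f15, and none was called. Cyp4f18, an omega-hydroxylase of leukotriene B4 in myeloid cells, was at 19.2 to 23.2 CPM in BLM and at 29.5, 17.8 and 17.3 CPM in BLM+HBO. BLM+HBO 1 was the highest of all mice and the other two were the lowest, and the log2 fold change was -0.01 (adjusted P = 0.995). It turned to 0.02 with upper-quartile factors and overlaps Zfp961 on the opposite strand, which had 252 to 390 reads. Cyp4f16 was at 29.3 to 40.2 CPM in BLM and 33.4 to 38.1 CPM in BLM+HBO (log2 fold change 0.02, adjusted P = 0.969). Of its stretches of 150 bases, 2.77% were also in Cyp4f37. Cyp4f15 had the highest log2 fold change of the genes that were not called, 0.96 (standard error 0.52, adjusted P = 0.542), and was named for it after the values were seen. It was at 1.71, 4.18, 3.95 and 1.05 CPM in the BLM mice and at 4.10, 2.92 and 8.81 CPM in the BLM+HBO mice, and BLM+HBO 3 alone lay above all BLM mice. Leaving out BLM+HBO 3 brought the log2 fold change to 0.36, and leaving out BLM+HBO 2 brought it to 1.25 (adjusted P = 0.29). Cyp4f15 was called in the latter case and with no filter on low counts.

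The 5 tested genes of sterol and bile acid metabolism had log2 fold changes from -0.31 for Cyp46a1 to 0.47 for Cyp27a1, and none was called by edgeR. Cyp27a1 is the mitochondrial sterol 27-hydroxylase. It was at 15.5, 17.6, 20.0 and 18.7 CPM in the BLM mice and at 30.2, 19.4 and 25.2 CPM in the BLM+HBO mice. BLM+HBO 2 lay just below BLM 3, and the other two lay above all BLM mice. The log2 fold change was 0.47 (standard error 0.17, edgeR unadjusted P = 0.0189, adjusted P = 0.422, 0.0936 to 0.806 over the alternatives), past the P limit but not the fold limit. Without BLM+HBO 2 it was 0.63 (adjusted P = 0.0936), and the gene was called. The log2 fold change was 0.31 without BLM+HBO 1 (edgeR unadjusted P = 0.0969) and 0.46 without BLM+HBO 3. Cyp7b1, the oxysterol 7-alpha-hydroxylase, was named after its values were seen. It was at 23.97, 25.0, 15.1 and 23.7 CPM in the BLM mice and at 10.9, 33.4 and 12.6 CPM in the BLM+HBO mice, where BLM+HBO 2 was the highest of all 7 mice and the other two the lowest. The log2 fold change was -0.21 (adjusted P = 0.869) with all mice and -0.90 (adjusted P = 0.0898) without BLM+HBO 2. This made Cyp7b1 the 1 gene of the 32 tested that was called lower under any setting. Cyp7b1 was at 0.062 without BLM+HBO 1 and at 0.015 without BLM+HBO 3.

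The retinoic acid hydroxylase Cyp26b1 varied widely among mice of 1 group. It was at 51.0, 146, 20.9 and 33.9 CPM in the BLM mice and at 29.6, 86.3 and 48.1 CPM in the BLM+HBO mice, and the BLM+HBO mice all lay within the BLM range. Its log2 fold change was -0.20 (standard error 0.60, adjusted P = 0.931) and turned to 0.05 by limma-trend. Cyp2r1, the vitamin D 25-hydroxylase, was at 0.737 to 2.59 CPM in BLM and 1.05 to 1.27 CPM in BLM+HBO, with a log2 fold change of -0.20 (adjusted P = 0.914). Cyp20a1, a P450 with no settled substrate, varied little among the BLM mice. It was at 44.7, 42.5, 40.3 and 41.9 CPM in the BLM mice and at 34.0, 41.5 and 35.0 CPM in the BLM+HBO mice. BLM+HBO 2 lay inside the BLM range and the other two below it, and the log2 fold change was -0.20 (standard error 0.11, adjusted P = 0.545).

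Summed over the 32 genes, the P450 level was 1086, 1762, 1440 and 1261 CPM in the BLM mice and 2247, 1541 and 2877 CPM in the BLM+HBO mice. BLM+HBO 2 again lay among the BLM mice. Cyp2f2 made up 28.7% to 41.9% of this sum in BLM and 43.4%, 37.5% and 57.4% of it in BLM+HBO. Without Cyp2f2 the sums were 774 to 1024 CPM in BLM and 1272, 963 and 1225 CPM in BLM+HBO, and BLM+HBO 1 and BLM+HBO 3 still lay above all BLM mice. In BLM+HBO 1, 16 of the 32 genes lay above all BLM mice and 4 below them, against 27.1% and 25.7% of all genes. In BLM+HBO 2 these were 7 and 2 genes, against 15.4% and 15.8%, and in BLM+HBO 3 they were 11 and 3 genes, against 24.4% and 24.7%.

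**Figure D5:**
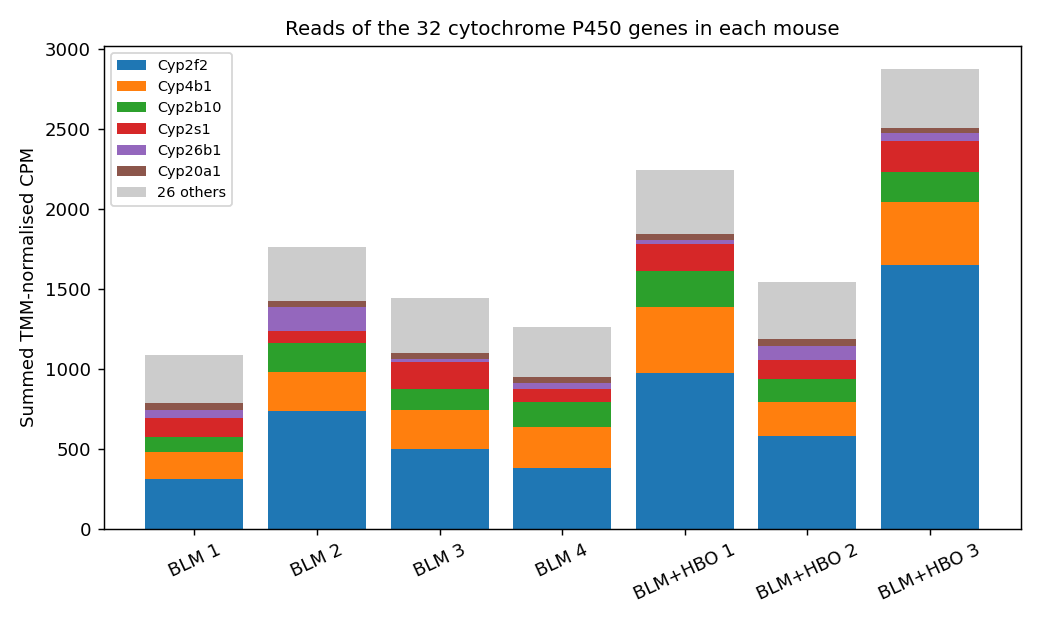
Summed TMM-normalised CPM (y axis) of the 32 tested cytochrome P450 genes in each of the 7 mice (x axis), split into the 6 genes with the highest mean CPM and 26 others. The bars of BLM+HBO 1 and BLM+HBO 3 reach 2247 and 2877 CPM, and that of BLM+HBO 2, at 1541 CPM, lies within the range of the BLM mice.

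By subfamily, the mean summed CPM was higher in BLM+HBO for 17 of 25 subfamilies and lower for 8, and the groups overlapped in all of them. Most subfamilies had 1 tested gene (22 of 25). Of the other 3, Cyp2b went from 141 ± 36.7 CPM (SD, n = 4) to 188 ± 41.0 CPM (SD, n = 3), a log2 ratio of 0.41, which lay close to that of Cyp2b10 alone. Cyp2j went from 24.6 ± 2.69 to 26.8 ± 3.03 CPM, a log2 ratio of 0.13. The 6 Cyp4f genes together went from 113 ± 18.4 to 119 ± 3.55 CPM, a log2 ratio of 0.08. Both of the latter differences were smaller than the SD of the BLM mice.

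The partners and regulators of the P450 enzymes were given from fixed lists. In the lists of electron partners, heme synthesis and regulators, 0 genes were called by edgeR, DESeq2 or limma-trend with all mice and the same read filter. Of 9 tested electron partners, 7 were above 0 and 3 had an unadjusted edgeR P below 0.05. Por, the oxidoreductase that supplies microsomal P450s with electrons, was at 135 to 191 CPM in BLM and at 233, 173 and 318 CPM in BLM+HBO, with BLM+HBO 2 among the BLM mice. Its log2 fold change was 0.53 (standard error 0.20, unadjusted P = 0.0276, adjusted P = 0.437), just under the fold threshold. It was 0.27 without BLM+HBO 3 and 0.72 (adjusted P = 0.0871) without BLM+HBO 2, and Por was called when BLM+HBO 2, BLM 2 or BLM 3 was left out. Of 10 tested genes of heme synthesis, 7 were above 0 and 0 had an unadjusted P below 0.05, with a median log2 fold change of 0.10. Of 18 tested nuclear receptors and related factors that regulate P450 genes, 10 were above 0 and 1 had an unadjusted P below 0.05. Nr1i2, the pregnane receptor, was at 0.451 to 2.19 CPM in BLM and 1.10 to 1.31 CPM in BLM+HBO (log2 fold change 0.08, adjusted P = 0.971), and Nr1i3 had at most 5 reads in any mouse.

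Of 3 tested P450 enzymes whose symbols follow another pattern, 1 was called lower, against 2.86% of all genes, and all 3 had a log2 fold change below 0. The called gene was Ptgis, which makes prostacyclin. It was at 152, 163, 117 and 90.7 CPM in the BLM mice and at 74.5, 105 and 81.4 CPM in the BLM+HBO mice, and BLM+HBO 2 lay above BLM 4. Its log2 fold change was -0.59 (standard error 0.21, edgeR unadjusted P = 0.0188, adjusted P = 0.422), and the call was lost under 7 of 16 alternatives. Cyp51, the lanosterol demethylase of cholesterol synthesis, had a log2 fold change of -0.36 (adjusted P = 0.439), and Tbxas1, which makes thromboxane, one of -0.38 (adjusted P = 0.46). Without BLM+HBO 2, Tbxas1 was at -0.61 (adjusted P = 0.0657) and was called. Tbxas1 was at -0.24 without BLM+HBO 1 and at -0.32 without BLM+HBO 3.

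Markers of the cells that whole lung holds were examined beside the P450 genes, and their part in the differences was not tested. Over all tested genes, 3.46% were called higher and 2.86% lower. Of 8 club cell markers, 6 had a log2 fold change above 0 and 2 below, and 2 were called higher, Scgb1a1 (log2 fold change 0.73, standard error 0.31, adjusted P = 0.46) and Cbr2 (1.44, standard error 0.38, adjusted P = 0.42). The call of Scgb1a1 was lost under 7 of 16 alternatives. Scgb3a1, named after its values were seen, lay in the other direction, at 123, 295, 363 and 204 CPM in the BLM mice and at 50.5, 218 and 68.9 CPM in the BLM+HBO mice. For Scgb3a1 the log2 fold change was -1.13 (standard error 0.51, adjusted P = 0.471), and -2.04 (adjusted P = 0.0431) without BLM+HBO 2, and it was called lower there and by limma-trend. The summed club cell level was 6132 to 13027 CPM in BLM and 15965, 10088 and 20816 CPM in the BLM+HBO mice, with BLM+HBO 2 again within the range of the BLM mice. The ratio of Cyp2f2 to Scgb1a1 in CPM was 0.0643, 0.0699, 0.0573 and 0.0627 in the BLM mice and 0.0796, 0.0701 and 0.0969 in the BLM+HBO mice. The ratio was higher in BLM+HBO 1 and BLM+HBO 3 than in any BLM mouse, and in BLM+HBO 2 it was hardly above that of BLM 2.

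Of 9 alveolar type 2 markers, all were above 0 and Sftpa1 was called higher, and their sum was 9749 to 17779 CPM in BLM and 12438 to 29769 CPM in BLM+HBO. Of 5 ciliated cell markers, Ccdc39 was called higher (sum 145 to 301 CPM in BLM, 202 to 280 CPM in BLM+HBO), and of 5 alveolar fibroblast markers, Tcf21 (953 to 1562 and 1210 to 1403 CPM). In the alveolar fibroblast list 3 markers were above 0 and 2 below, with Pdgfra, named after its values were seen, at -0.53 (adjusted P = 0.445). None of 6 alveolar type 1 (3300 to 4865 and 4254 to 4855 CPM), 8 endothelial (2096 to 2814 and 2339 to 3049 CPM) and 5 neutrophil markers (142 to 209 and 87.1 to 466 CPM) was called. Of 4 matrix fibroblast markers, Col1a1, Col3a1 and Cthrc1 were called lower (sum 4145 to 6651 CPM in BLM, 1413 to 4232 CPM in BLM+HBO). Of 7 macrophage markers, 2 were above 0 and 5 below, and Adgre1, Mrc1 and Marco were called lower (759 to 902 and 536 to 791 CPM).

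Hepatocyte markers were near 0, with Alb, the albumin gene, at no more than 1.92 CPM in any mouse and 3 of 6 markers below the read filter. Adipocyte markers were likewise low, with Adipoq at most at 0.787 CPM and 3 of 5 below the filter. All 6 heart muscle markers (Myh6, Myl7, Actc1, Tnnt2, Tnni3 and Ryr2) were called higher, with sums of 58.7 to 167 CPM in BLM and 142 to 579 CPM in BLM+HBO. Myh6 was at 232 and 188 CPM in BLM+HBO 1 and BLM+HBO 2 and at 34.5 CPM in BLM+HBO 3. Among the BLM+HBO mice this order was unlike that of Cyp1a1 and Cyp2f2. It was the same as that of Cyp2a5, which was at 47.3, 40.9 and 30.1 CPM in BLM+HBO 1 to BLM+HBO 3. The part of heart muscle in the P450 differences was not tested. Of 17 clock genes, 7 were called higher (Dbp, Tef, Hlf, Per3, Nr1d1, Nr1d2 and Ciart) and 2 lower (Nfil3 and Arntl). Dbp was at 25.7, 24.3, 15.5 and 5.58 CPM in the BLM mice and at 117, 50.0 and 39.2 CPM in the BLM+HBO mice. BLM 4 was lowest and BLM+HBO 1 highest for both Dbp and Cyp2a5, an order looked for after the values were seen. The order differed for Cyp1a1, where BLM 4 was the highest BLM mouse, and for Cyp2f2, where BLM 1 was lowest. BLM+HBO 3 was the highest of all mice for both of the latter genes. The part of the clock genes in the P450 differences was not tested.

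The other 62 annotated P450 genes were below the read filter. Of these, 18 had 0 reads in every mouse, which limits their level but does not show that they were silent. Another 40 had a read but fewer than 10 in every mouse. The last 4 had 10 or more reads in 1 or 2 mice: Cyp11a1, Cyp21a1, Cyp2c23 and Cyp2g1. Cyp11a1, which starts steroid hormone synthesis, had 2, 2, 5 and 1 reads in the BLM mice and 21, 2 and 7 in the BLM+HBO mice. Cyp21a1, the steroid 21-hydroxylase, had 12, 5, 6 and 2 reads in BLM and 3, 19 and 2 in BLM+HBO, and Cyp2g1, a P450 of the nose, had 4, 5, 5 and 0 against 10, 8 and 11. Just inside the filter were Cyp2b19, with 10 or more reads in 3 mice, and Cyp4a32, with 10 or more in 5. None of the 15 annotated Cyp2c genes passed, nor did any gene of steroid hormone synthesis.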

How the data were processed

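Right lung lobes of 4 BLM and 3 BLM+HBO mice were sequenced as paired ends, with 1 library per mouse. After trimming with Trim Galore, the authors aligned reads by HISAT2 (2.2.0 in the submitters' processing notes) to the GRCm38 mouse genome. They deposited raw read counts per gene from featureCounts at default settings, in which strand is ignored and multi-mapping reads are not counted. The annotation release is not given in the sources used here; GENCODE vM21 gave a symbol to 55141 of 55401 genes.

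All genes with 10 or more reads in at least 3 mice were tested with edgeR 4.0.16 (R 4.3.3; TMM factors, quasi-likelihood test, group as the only term, common biological coefficient of variation 0.222). The standard error was the absolute log2 fold change divided by the square root of F. Thresholds followed the study (unadjusted P below 0.05, fold change above 1.5), with a Benjamini-Hochberg adjusted P below 0.05 beside them. The read filter replaced edgeR's own so that P450 genes and background shared it. DESeq2 1.42.0, limma-trend 3.58.1, other factors and filters, robust dispersion, a replicate block, stricter limits and leaving out each mouse were alternatives. The test was tested on simulated data with 200 changed genes. Libraries differed by more than sampling noise, and nothing more than the mouse numbers is given on how animals were housed or processed together.

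The P450 genes, the gene lists and the alternatives were chosen with earlier results of these data known. Named were P450 genes that were called or did not overlap between groups, the 10 with the highest RPKM, the highest in each role, those just outside the read filter, called genes of the other lists, the first gene of a marker list, and Ahr, Ahrr, Nqo1, Tiparp, Por, Nr1i2, Nr1i3, Cyp51, Ptgis, Tbxas1 and Scgb1a1. Other named genes are said to be chosen after their values were seen. Depth limits genes near 10 reads. P values set a group difference against the spread between these mice, which edgeR estimates partly from other genes.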

Additional observations from a re-analysis of the deposited data

Results flagged for a closer look

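Among the BLM mice, 50 sets of 4 values were examined for a mouse far from the other 3, and 4 passed Dixon's critical value, where chance gives about 1 in 20. Cyp7b1 was at 3.93 log2 CPM in BLM 3, against 4.57 to 4.65 in the others. Cyp2j6 was at 4.06 log2 CPM in BLM 4, against 4.43 to 4.45. Nqo1 was at 2.82 log2 CPM in BLM 4, against 3.07 to 3.11. BLM 4 also had the largest library of its group, with 19002242 counted reads, while the other 3 had between 18436336 and 18452895.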

How the results depend on the processing

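The number of P450 genes called, 4, was 2 at an unadjusted P below 0.01 and ranged from 3 to 8 with 1 mouse left out, the highest without BLM+HBO 2. After adjustment the number, 0 by edgeR, was 1 by DESeq2 (Cyp1a1), 2 with no filter on low counts (Cyp1a1 and Cyp2f2) and 0 to 1 with 1 mouse left out. The shares of all genes that passed adjustment were 0% by edgeR, 0.82% by DESeq2 and 1.18% of 32896 genes with no filter. With 1 mouse left out these shares ranged from 0% to 1.48%. Over all genes, 1122 unadjusted calls became 1940 with no filter, 331 at P below 0.01 and 534 at a fold change above 2. They ranged from 639 to 1879 with 1 mouse left out. Calls in the other gene lists, 27, became 12 at P below 0.01 and 15 at a fold change above 2, and ranged from 20 to 41 with 1 mouse left out. The median log2 fold change of the P450 genes stayed above 0 under all 16 alternatives run for it. With 1 mouse left out, the log2 fold change passed 0 for 12 of the 32 P450 genes, which were Cyp26b1 (-0.69 to 0.64), Cyp2d22 (-0.024 to 0.18), Cyp2r1 (-0.40 to 0.37), Cyp4f16 (-0.058 to 0.089), Cyp4f18 (-0.30 to 0.12), Cyp1b1 (-0.40 to 0.41), Cyp7b1 (-0.90 to 0.062), Cyp2j6 (-0.028 to 0.10), Cyp2u1 (-0.26 to 0.44), Cyp3a13 (-0.032 to 0.30), Cyp2e1 (-0.17 to 0.19), and Cyp8b1 (-0.38 to 0.056), and also for Ahr (-0.14 to 0.12), Tiparp (-0.26 to 0.078) and Nr1i2 (-0.18 to 0.63), and the log2 ratio of the summed Cyp4f level ranged from -0.0039 to 0.19. Cyp26b1 was at 0.053 by limma-trend and Cyp4f18 at 0.020 with upper-quartile factors. The cause of these changes was not tested. Deviations from the group means had correlations of 0.00123, -0.0612 and 0.159 in same-numbered mice. In differently numbered mice they were between -0.173 and 0.15. Values this few and this small cannot settle whether the numbers pair the mice. With the replicate number as a block, 4 P450 genes and 1279 of all genes were called, and Cyp2j6 was at -0.029. Without Cyp2b19, an alternative chosen after seeing the data, 3 P450 genes were called.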
